A study of Homo sapiens with 6 samples.

Results

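Integrins and laminins were followed in Huh7, a human hepatocellular carcinoma line, after knockdown of CTSV, the gene of the lysosomal protease cathepsin V. The genes were taken by a rule on their names. The names searched in the deposited count table were those of integrin alpha genes (ITGA), integrin beta genes (ITGB with 1 digit) and laminin chains (LAMA, LAMB, LAMC), with 1 entry per name. The genes described are 27 of 27394 gene names, namely 12 integrin alpha, 7 integrin beta and 8 laminin genes. Other integrin and laminin genes were not analysed here. The 3 control libraries came from Huh7 cells carrying a control short hairpin RNA (shRNA), labelled wild type for CTSV. The 3 knockdown libraries came from Huh7 cells with an shRNA against CTSV. The series states the purpose as following what CTSV does in liver cancer. The labels do not say how many shRNAs or clones were used, nor whether replicate libraries stem from different cultures. The p-values therefore rest on library-to-library spread alone, and that spread could be technical.

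Integrins are adhesion receptors of the cell surface, each a pair of 1 alpha and 1 beta subunit. The alpha subunit largely sets the ligand (collagens, laminins, fibronectin or vitronectin, or ligands on other cells), and the beta tail binds talin and kindlin, which connect the receptor to actin. Laminins are secreted trimers of 1 alpha, 1 beta and 1 gamma chain that polymerise into basement membranes, and several integrins with an ITGB1 or ITGB4 subunit bind them. In liver, hepatocytes face a matrix that is poor in laminin, and laminin chains and laminin-binding integrins are known to be more abundant in hepatocellular carcinoma.

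Library totals lay between 16258803 and 18106207 counts. CTSV was lower in each knockdown library (16 to 18.4 CPM, counts scaled to library size after TMM normalisation) than in each control library (41.0 to 44.5 CPM), so the labels and the targeted gene go together. The 9 hepatocyte markers were all tested and summed to 33827 to 34611 CPM in controls and 41344 to 42403 CPM in knockdown libraries. Most of it was ALB, AFP and APOB (11482 ± 273, 9999 ± 135 and 8410 ± 813 CPM in controls, n = 3). Of the 9 markers, 6 were called higher, TTR was called lower, and APOA1 and FGB were not called. Of 11 leukocyte markers, 6 were in the table, and they summed to 77.0 to 85.2 CPM in controls and 57.7 to 63.1 CPM in knockdown libraries, nearly all of it LYZ (76.3 ± 4.16 and 57.1 ± 2.80 CPM, SD, n = 3 each). Of 5 platelet markers, 2 were in the table and summed to 1.08 to 1.68 CPM in controls and 0.935 to 2.30 CPM after knockdown. Of 6 endothelial markers, 2 were in the table and summed to 18.1 to 23.5 and 19.6 to 21.8 CPM. Of 5 cholangiocyte markers, 4 were in the table and summed to 176 to 193 and 174 to 187 CPM. Of the latter, EPCAM was called higher (10.2 ± 1.35 to 21.7 ± 2.48 CPM) and SOX9 lower (107 ± 4.49 to 94.9 ± 1.3 CPM, n = 3 each). Of 8 stellate cell and fibroblast markers, 5 were in the table. They summed to 53.5 to 57.5 CPM in controls and 70.2 to 73.6 CPM in knockdown libraries, and 2 of 4 tested, COL1A2 and LUM, were called higher. None of the listed markers that were in the table had a count of 0 in all libraries. Those without an entry, among them PTPRC, CD68, CDH5, KDR and KRT7, could not be assessed. Mitochondrial genes took 9.09% to 9.52% of counts in controls and 11.4% to 11.8% in knockdown libraries. Whether these shifts have a part in the member results was not tested, apart from the refit without mitochondrial genes, in which 8 members were again called higher and 3 lower.

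In knockdown libraries 8 of the 27 genes rose and 3 fell. A total of 13 were tested and not called, and 3 had too few counts to be tested. The threshold for a call was an adjusted p under 0.05 (edgeR, quasi-likelihood, Benjamini-Hochberg over the 15968 genes tested). The risers were LAMA2, LAMA5, LAMB1, LAMB2, LAMC1, ITGA5, ITGAE and ITGB8, and those that fell were LAMA4, ITGA2 and ITGAV. Of all genes tested, 18.7% were called higher and 21.6% lower. Among genes with a mean of at least 10 CPM over all libraries, where 13 members lie, 19.7% were called higher and 33.4% lower, against 6 and 2 of the 13 members. The median log2 fold change of the tested members was 0.20, against 0.02 for all genes tested, and that of the 13 abundant members was 0.14, against -0.07 for all genes at that level. In bulk RNA, fewer cells expressing a gene and less RNA per cell cannot be told apart.

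The same members looked partly different by groups alone. The 3 knockdown libraries lay above all 3 controls in 12 tested members and below them in 4, while 24.1% and 25.0% of all genes tested did so. Of the 24 tested members, 18 passed the low-count filter in all 6 libraries. The other 6 (ITGA3, ITGB4, ITGB6, ITGB8, LAMA2 and LAMB4) reached it in all knockdown libraries but not in all controls, so a member that is high only after knockdown was more likely to be among those tested. These 6 had log2 fold changes from -0.18 (ITGB6) to 1.46 (LAMA2) and enter the median of 0.20. LAMA2 and ITGB8 are also among the 8 risers. None of the 6 is among the 13 abundant members.

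**Figure D1:**
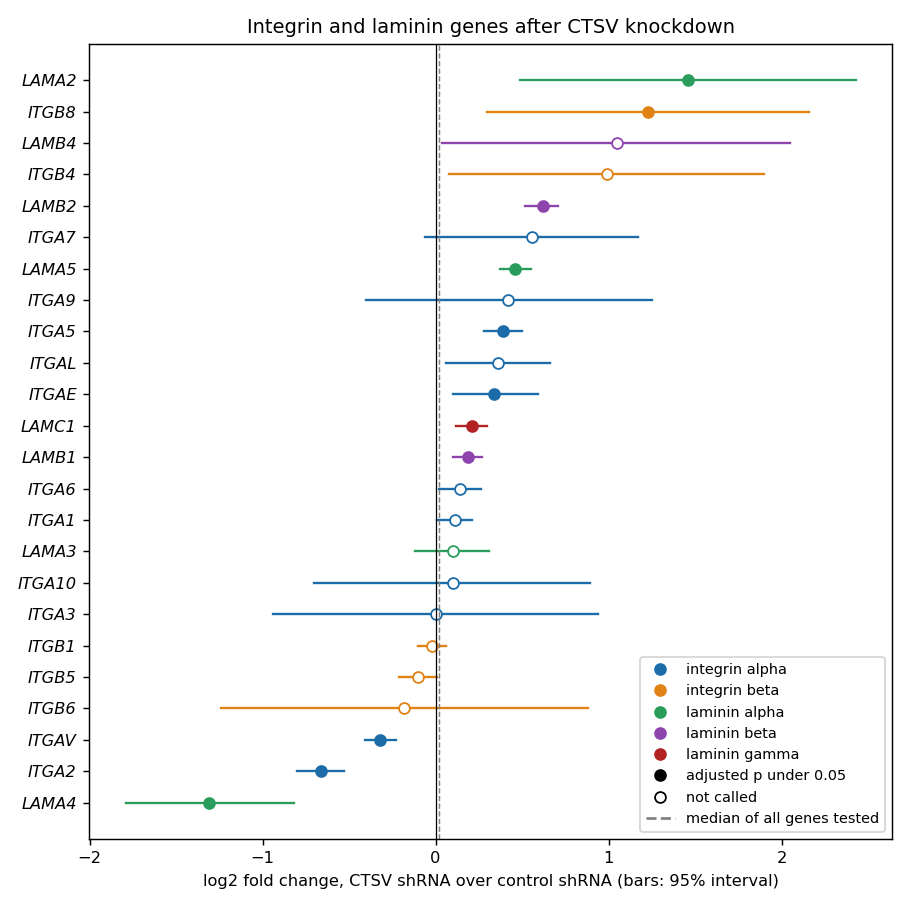
Log2 fold change (x axis, CTSV shRNA over control shRNA) of the 24 tested integrin and laminin genes with 95% intervals, coloured by subunit family; filled points were called by edgeR and the dashed line is the median of all genes tested (0.02). LAMA2 (1.46) and ITGB8 (1.23) stand at the top with wide intervals, LAMB2 and LAMA5 have narrow intervals above 0, and LAMA4 (-1.31), ITGA2 (-0.66) and ITGAV (-0.32) lie at the bottom.

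The 4 abundant laminin chains LAMA5, LAMB1, LAMB2 and LAMC1 rose together, by 1.14 to 1.53 times. They are the chains from which trimers with an alpha 5 chain are built, the laminins typical of mature epithelial and vascular basement membranes. LAMB2 (ENSG00000172037, minus strand of chromosome 3, 49121114 to 49133118 on hg38) changed most of the 4. It was at 174, 177 and 173 CPM in controls and at 258, 274 and 271 CPM in knockdown libraries, with no overlap. This was a log2 fold change of 0.62 (SE 0.0482, adjusted p = 7.27e-13, edgeR), 1.53 times the control level. LAMA5 (ENSG00000130702, minus strand of chromosome 20, 62307955 to 62367312), the alpha chain of these trimers, was at 272, 273 and 269 CPM in controls and at 372, 370 and 376 CPM in knockdown libraries. The spread within each group was under 4 CPM (SD 1.97 and 3.51, n = 3 each), and the log2 fold change was 0.46 (SE 0.0447, adjusted p = 1.66e-10, edgeR). On the opposite strand, ADRM1 shares 244 exon bases with LAMA5 out of 14291. ADRM1 itself fell by 0.49 on the log2 scale, from 42.0 ± 4.53 to 29.9 ± 1.83 CPM (n = 3 each), and the sources used here do not say whether counting used strand.

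LAMC1 and LAMB1 rose by less. LAMC1 (ENSG00000135862, plus strand of chromosome 1, 183023460 to 183145592), the usual gamma chain, was at 269, 263 and 277 CPM in controls and 309, 317 and 309 CPM in knockdown libraries, a log2 fold change of 0.21 (SE 0.0458, adjusted p = 0.000324, edgeR). LAMB1 (ENSG00000091136, minus strand of chromosome 7, 107923799 to 108003255), the beta chain that is alternative to LAMB2, was at 560, 576 and 584 CPM in controls and 634, 661 and 667 CPM in knockdown libraries. All knockdown libraries lay above all controls for these genes as well. LAMB1 shares 70 exon bases with DLD on the opposite strand, which fell by 0.28 on the log2 scale. For LAMB1 the log2 fold change was 0.19 (SE 0.0419, adjusted p = 0.000358, edgeR). When fitted trends with merged exon length and GC content were removed, the values fell to 0.11 for LAMB1 and 0.12 for LAMC1 (adjusted p = 0.0149 and 0.0157, edgeR), with 0.36 for LAMA5 and 0.58 for LAMB2. That setting called 14.1% of all genes higher and 29.4% lower, moved the median of all genes by -0.085, and gave 7 members higher and 5 lower.

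The rises were unequal, so the mix of chains moved. Different genes were set on 1 scale as CPM per kilobase of merged exons (CPM/kb), and comparisons between genes depend on the length used. With the longest transcript as length, LAMA5 was at 23.8 CPM/kb in controls, against 19.0 with merged exons, and LAMC1 at 34.2 against 32.1. With merged exons, LAMB2 made up 26.9%, 26.7% and 25.9% of the summed beta chain level in controls and 32.5%, 32.9% and 32.5% in knockdown libraries. The groups did not overlap. The ratio of LAMA5 to LAMC1 on that scale was 0.593 ± 0.0194 in controls and 0.703 ± 0.0153 in knockdown libraries (n = 3 each). Both beta chains together stood at 2.99 ± 0.0839 times LAMC1 in controls and 3.22 ± 0.0792 times in knockdown libraries (n = 3 each). The summed level of the 8 laminin genes was 1303, 1318 and 1331 CPM in controls and 1602, 1647 and 1652 CPM in knockdown libraries, 1.24 times higher. For each of these quantities an exact permutation test, two-sided with 3 libraries a group, gave p = 0.1, the smallest it allows, and 0.106 with Benjamini-Hochberg adjustment over 17 such quantities. The summed laminin level had to separate, because LAMA5, LAMB1, LAMB2 and LAMC1 hold most of it and were each higher in every knockdown library. The p of that sum therefore adds nothing to the values of these genes.

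LAMA4 was the member that fell most. It encodes an alpha chain known from vessel walls and mesenchymal tissue, and lies on the minus strand of chromosome 6 (ENSG00000112769, 112108760 to 112254939). Its level was 5.89, 6.92 and 7.41 CPM in controls and 3.69, 1.82 and 2.64 CPM in knockdown libraries. The groups did not overlap, and the log2 fold change was -1.31 (SE 0.238, adjusted p = 2.8e-05, edgeR), 40.4% of the control level. Its share of the summed alpha chain level (CPM/kb) went from 2.78% ± 0.325 to 0.839% ± 0.285 (n = 3 each), while that of LAMA5 went from 90.6% ± 0.181 to 93.4% ± 0.509 (n = 3 each). LAMA3 (ENSG00000053747), the alpha chain of epithelial anchoring laminin, was at 19.0 to 20.5 CPM in controls and 19.3 to 22.3 CPM in knockdown libraries. The groups overlapped, with a log2 fold change of 0.10 (95% interval -0.12 to 0.31).

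LAMA2 rose from a level near the limit of these libraries. LAMA2, the alpha chain of muscle and nerve laminin, had counts of 19, 5 and 8 in controls and 24, 33 and 32 in knockdown libraries, and 1 control reached the filter threshold. Its log2 fold change of 1.46 (adjusted p = 0.0139, edgeR) became 2.10 without control replicate 1. The call was lost without control replicate 2 (1.13, adjusted p = 0.087), control replicate 3 (1.32, 0.0556) or knockdown replicate 2 (1.34, 0.0691). LAMB4, a beta chain of restricted expression next to LAMB1 on chromosome 7, had counts of 28, 6 and 8 in controls and 14, 30 and 44 in knockdown libraries. The groups overlapped and it was not called (1.05, adjusted p = 0.0917, edgeR), but without control replicate 1 its value was 1.96 (adjusted p = 0.0112) and without knockdown replicate 1 it was 1.36 (0.03). Without control replicate 2 it was 0.69 (0.33) and without knockdown replicate 3 it was 0.70 (0.386).

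**Figure D2:**
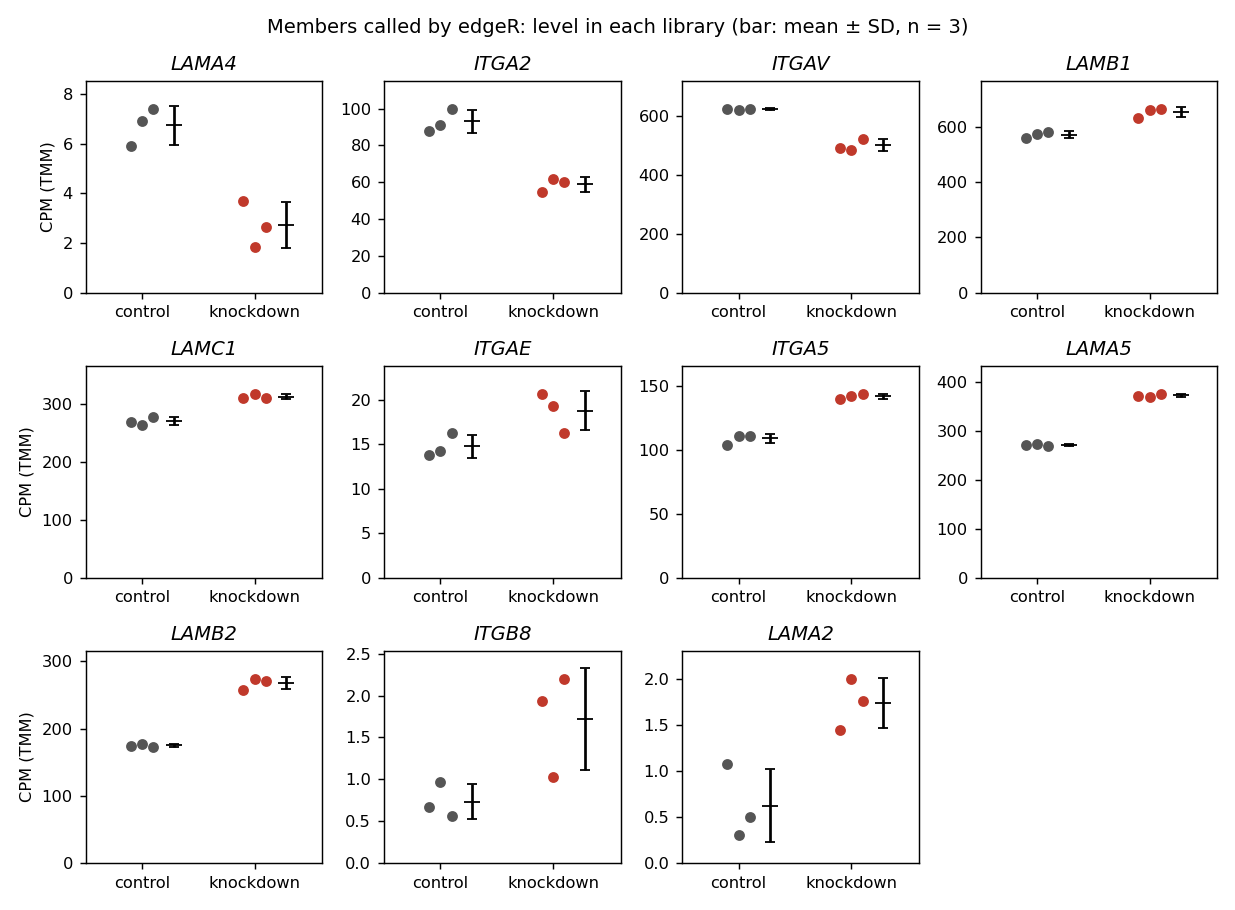
Level (y axis, CPM after TMM normalisation, starting at 0) of the 11 called members in each of the 3 control and 3 knockdown libraries, with the mean and SD beside the points. LAMA5, LAMB2 and ITGA5 show tight groups far apart, while ITGB8 and LAMA2 stay near or below 2 CPM and the nearest ITGAE libraries of the groups lie at 16.3 CPM each.

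The 250 bases before the RefSeq start of the 4 laminin genes that rose together, and of ITGA2, which fell, are given so that their sequence can be compared. They come from RefSeq on GRCh38.p14, where 26 starts were matched for 21 of the 27 genes. No start was matched for ITGA3, ITGA7, ITGA9, ITGAL, ITGB3 and ITGB4. A RefSeq start can lie inside the gene's span in the count table, as it does for LAMB1, LAMB2 and ITGA2. The last bases printed for these genes then lie inside that span. A total of 3 motifs named for factors were searched on both strands: TGANTCA (AP-1), GGAATG (TEAD) and GGGCGG (SP1). Capitals mark the matches, written 5′ to 3′ on the gene's strand.

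LAMA5 (minus strand, chr20:62367313-62367562): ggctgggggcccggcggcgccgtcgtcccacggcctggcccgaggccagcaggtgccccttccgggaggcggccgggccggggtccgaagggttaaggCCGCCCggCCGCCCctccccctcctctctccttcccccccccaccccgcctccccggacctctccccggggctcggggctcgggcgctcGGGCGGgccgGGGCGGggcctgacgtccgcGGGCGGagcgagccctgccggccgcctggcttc
LAMB2 (minus strand, chr3:49133051-49133300): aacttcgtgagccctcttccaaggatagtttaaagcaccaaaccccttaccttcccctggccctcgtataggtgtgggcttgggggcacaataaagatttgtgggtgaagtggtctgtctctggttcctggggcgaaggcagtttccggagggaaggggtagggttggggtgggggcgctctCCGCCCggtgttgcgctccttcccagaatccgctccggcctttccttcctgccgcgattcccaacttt
LAMB1 (minus strand, chr7:108003162-108003411): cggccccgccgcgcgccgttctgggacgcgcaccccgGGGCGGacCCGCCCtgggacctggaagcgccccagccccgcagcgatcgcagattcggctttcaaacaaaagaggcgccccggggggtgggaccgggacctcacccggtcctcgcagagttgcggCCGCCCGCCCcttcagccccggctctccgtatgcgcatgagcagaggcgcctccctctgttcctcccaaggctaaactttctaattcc
LAMC1 (plus strand, chr1:183023170-183023419): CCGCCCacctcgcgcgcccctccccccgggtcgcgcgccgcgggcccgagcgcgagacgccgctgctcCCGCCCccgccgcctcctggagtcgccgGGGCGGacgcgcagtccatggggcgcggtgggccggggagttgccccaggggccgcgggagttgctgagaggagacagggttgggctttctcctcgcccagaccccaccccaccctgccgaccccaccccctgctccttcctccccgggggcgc
ITGA2 (plus strand, chr5:52989102-52989351): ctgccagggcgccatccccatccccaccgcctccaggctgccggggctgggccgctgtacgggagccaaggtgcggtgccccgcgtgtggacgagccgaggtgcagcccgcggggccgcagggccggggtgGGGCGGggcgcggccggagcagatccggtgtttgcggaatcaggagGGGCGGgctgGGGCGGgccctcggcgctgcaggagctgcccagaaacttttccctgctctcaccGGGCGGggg

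Every match in these 5 sequences was to GGGCGG. There were 5 in LAMA5, 4 in LAMB1, 3 in LAMC1, 1 in LAMB2 and 4 in ITGA2, so the gene that fell held as many as LAMB1. In LAMB1 the matches that begin 88 and 84 bases before the RefSeq start overlap. Among the starts matched, 12 of 26 held GGGCGG, 4 held GGAATG and 1 (LAMA3) held TGANTCA, against 42.6%, 11.9% and 6.6% of all 35116 promoters of that length. GC content was 82.8% for LAMA5, 79.6% for LAMC1, 76.4% for ITGA2, 70.4% for LAMB1 and 58.4% for LAMB2. These are matches of letters and were not tested for binding.

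Among integrin alpha genes, ITGA2 and ITGAV fell and ITGA5 and ITGAE rose, while 7 were not called and 1 was not tested. Of the 3 collagen receptors measured, 1 fell and 2 were not called. ITGA2 (ENSG00000164171, plus strand of chromosome 5, 52989326 to 53094779), whose pair with ITGB1 binds collagens and laminins, was at 88.1, 91.3 and 100 CPM in controls and 54.6, 62.0 and 59.9 CPM in knockdown libraries. Every knockdown library lay below every control, and the log2 fold change was -0.66 (SE 0.0672, adjusted p = 3.94e-10, edgeR), 63.2% of control. ITGA1 (ENSG00000213949), the other main collagen receptor, ends 30115 bases before ITGA2 on the same strand. It was at 177 to 180 CPM in controls and 192 to 195 CPM in knockdown libraries, without overlap, but was not called (0.11, 95% interval 0.01 to 0.21, adjusted p = 0.0606, edgeR). It was called among genes with a mean of at least 1 CPM (0.12, adjusted p = 0.0432), and its value was -0.09 with length and GC offsets. The ratio of ITGA2 to ITGA1 in CPM was 0.490, 0.517 and 0.558 in controls and 0.283, 0.318 and 0.312 in knockdown libraries (exact two-sided permutation p = 0.1, the smallest possible). This ratio had to separate, because ITGA2 was lower and ITGA1 higher in every knockdown library. Its p therefore adds nothing to the values of both genes. ITGA1 shares 475 exon bases with PELO on the same strand, which fell by 0.35 on the log2 scale. ITGA10, a collagen receptor of cartilage, had only 80 counts over the controls and 86 over the knockdown libraries and was not called.

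The receptors for fibronectin and vitronectin also moved in opposite directions. ITGA5 (ENSG00000161638, minus strand of chromosome 12, 54395261 to 54419460), which with ITGB1 forms the classical fibronectin receptor, was at 104, 111 and 111 CPM in controls and 140, 142 and 144 CPM in knockdown libraries. This gave a log2 fold change of 0.39, with SE 0.0540 and an adjusted p of 3e-07 (edgeR). ITGAV (ENSG00000138448, plus strand of chromosome 2, 186590065 to 186680901), which pairs with several beta subunits to bind vitronectin and latent TGF-beta, was at 625, 620 and 625 CPM in controls and 490, 486 and 523 CPM in knockdown libraries. This was a log2 fold change of -0.32 (SE 0.0428, adjusted p = 1.51e-07, edgeR), 80.2% of control, and the groups did not overlap in either gene. The ratio of ITGA5 to ITGAV in CPM was 0.174 ± 0.00652 in controls and 0.284 ± 0.00941 in knockdown libraries (n = 3 each), 1.63 times higher. As ITGA5 rose and ITGAV fell without overlap, this ratio had to separate as well. ITGA2B, the platelet partner of ITGB3, had 30 counts over the controls and 14 over the knockdown libraries, below the filter.

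ITGA3, ITGA6 and ITGA7, known mainly as laminin receptors, were not called. ITGA6 (ENSG00000091409), which pairs with ITGB1 or ITGB4, was at 130, 120 and 141 CPM in controls and 136, 140 and 153 CPM in knockdown libraries, so the groups overlapped. Its log2 fold change was 0.14 (95% interval 0.02 to 0.26, adjusted p = 0.0634, edgeR). Without control replicate 3 it was 0.19 and called (adjusted p = 0.0208), as it was without knockdown replicate 1 (0.17, 0.0351) and among genes with a mean of at least 1 CPM (0.14, 0.0485). It was 0.08 without control replicate 2 or knockdown replicate 3 (adjusted p = 0.337 and 0.33) and 0.04 with length and GC offsets (0.587). ITGA3 and ITGA7 were low. ITGA3 had 59 and 60 counts over the 3 libraries of each group, and ITGA7 lay at 1.99 to 3.64 CPM in controls and 2.85 to 5.81 CPM in knockdown libraries with a log2 fold change of 0.56 (95% interval -0.06 to 1.17). Without control replicate 1, ITGA7 was at 0.88 and called (adjusted p = 0.0451, edgeR), and without knockdown replicate 1 it was at 0.14 (0.788).

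Subunits best known from leukocytes were detected too. ITGAE (ENSG00000083457, minus strand of chromosome 17, 3714628 to 3801243), which with ITGB7 binds E-cadherin, was at 13.8, 14.3 and 16.3 CPM in controls and 20.7, 19.3 and 16.3 CPM in knockdown libraries, so that the nearest libraries of the groups were equal to 3 digits. It rose by 0.34 (adjusted p = 0.0219, edgeR). The call was lost without control replicate 1 or 2 (adjusted p = 0.0934 and 0.0633), without knockdown replicate 1 or 2 (0.123 and 0.0777) and with DESeq2 (0.0721). ITGAE shares 427 exon bases with HASPIN on the opposite strand, and HASPIN fell by 0.50 on the log2 scale. ITGAL, the alpha subunit of the lymphocyte receptor for ICAM1, was at 8.13, 9.39 and 8.60 CPM in controls and 11.9, 11.6 and 10.1 CPM in knockdown libraries. The groups did not overlap, and its log2 fold change of 0.36 just missed the threshold (adjusted p = 0.0506, edgeR). It was called without control replicate 2 (0.41, 0.0446), without knockdown replicate 3 (0.43, 0.0405) and among genes with a mean of at least 1 CPM (0.37, 0.0444). The T cell marker CD3D was at 1.27 ± 0.319 and 0.704 ± 0.0722 CPM and the monocyte marker CD14 at 2.60 ± 0.481 and 2.14 ± 0.510 CPM in controls and knockdown libraries (n = 3 each). ITGA9, a receptor for tenascin and other matrix proteins, had 62 counts over the controls and 84 over the knockdown libraries and was not called. The summed level of all integrin alpha genes was 1159, 1148 and 1187 CPM in controls and 1057, 1064 and 1106 CPM in knockdown libraries (exact two-sided permutation p = 0.1, the smallest possible). ITGAV, the largest part of that sum, fell from 623 ± 2.78 to 500 ± 20.4 CPM (n = 3 each), and the sum without ITGAV was not computed. The median log2 fold change of the 11 tested alpha genes was 0.14, so the lower sum does not stand for the family.

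Of the 7 integrin beta genes, ITGB8 was called. ITGB1 (ENSG00000150093, minus strand of chromosome 10, 32900319 to 33005792), the shared partner of most alpha subunits, was the most abundant member. It was at 1113, 1063 and 1093 CPM in controls and 1046, 1107 and 1076 CPM in knockdown libraries, and the groups overlapped. Its log2 fold change was -0.02 (95% interval -0.10 to 0.06), and -0.11 with length and GC offsets, where it was called lower (adjusted p = 0.0132, edgeR). Its level per kilobase was 1.37 ± 0.0316 times the sum of its measured alpha partners in controls and 1.49 ± 0.0593 times in knockdown libraries (n = 3 each). That sum includes ITGAV, its largest part, which also pairs with other beta subunits. ITGAV fell from 75.9 ± 0.338 to 60.9 ± 2.48 CPM/kb (n = 3 each), so the ratio depends on counting it as a partner. The ratio without ITGAV was not computed. ITGB5, a vitronectin receptor subunit that pairs with ITGAV, was at 116, 123 and 121 CPM in controls and 111, 113 and 113 CPM in knockdown libraries. Those groups did not overlap, yet it was not called (-0.10, adjusted p = 0.161, edgeR). It was called with length and GC offsets (-0.13, adjusted p = 0.0359) and with all deposited entries kept (-0.13, adjusted p = 0.0417).

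The remaining beta subunits had few reads. ITGB8 (ENSG00000105855, plus strand of chromosome 7, 20330702 to 20415754), which with ITGAV activates latent TGF-beta, had counts of 12, 16 and 9 in controls and 32, 17 and 40 in knockdown libraries. The log2 fold change was 1.23 (95% interval 0.30 to 2.16, adjusted p = 0.0302, edgeR). The call was lost without control replicate 1 or 3 (adjusted p = 0.0906 and 0.107), without knockdown replicate 1 or 3 (0.0942 and 0.165), with DESeq2 (0.0694) and with length and GC offsets (0.0691). ITGB4, the hemidesmosome subunit, had counts of 19, 19 and 7 in controls and 34, 35 and 21 in knockdown libraries. Its log2 fold change of 0.99 was not called (adjusted p = 0.0753, edgeR), except without knockdown replicate 3 (1.23, adjusted p = 0.048), and was 0.68 without control replicate 3 (0.289). ITGB6, an epithelial partner of ITGAV, had 53 and 48 counts over the 3 libraries of each group and overlapping values. ITGB3, the platelet and endothelial partner of ITGAV, had counts of 3, 0 and 3 in controls and 8, 4 and 14 in knockdown libraries, and ITGB7, the partner of ITGAE, had 6 counts over the controls and 2 over the knockdown libraries. These were below the filter, and no fold change is given for them.

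Per exon length, a few members held most of the signal. In controls ITGB1 was at 181 ± 4.12 CPM/kb, ITGAV at 75.9 ± 0.338, LAMB1 at 70.4 ± 1.54, LAMC1 at 32.1 ± 0.819 and LAMB2 at 25.5 ± 0.330 CPM/kb (n = 3 each), each separated from the next. ITGA6 at 20 ± 1.56, LAMA5 at 19.0 ± 0.138 and ITGB5 at 18.7 ± 0.530 CPM/kb overlapped as neighbours (n = 3 each). ITGA5 (14.3 ± 0.497), ITGA2 (11.8 ± 0.778) and ITGA1 (9.62 ± 0.0834) followed without overlap (n = 3 each). A total of 10 tested members had a control mean under 1 CPM/kb, and most neighbours in that part of the order overlapped.

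After knockdown 5 pairs of the 11 most abundant members changed places. LAMB1 (80.4 ± 2.13 CPM/kb) stood above ITGAV (60.9 ± 2.48), LAMA5 (26.1 ± 0.245) above ITGA6 (21.9 ± 1.38), ITGA5 (18.7 ± 0.236) above ITGB5 (17.4 ± 0.197) and ITGA1 (10.4 ± 0.0889) above ITGA2 (7.44 ± 0.488 CPM/kb, n = 3 each), all with separate ranges. LAMB2 (39.0 ± 1.23) stood above LAMC1 (37.1 ± 0.519 CPM/kb, n = 3 each), but their libraries overlapped. Of these 5 changes, 3 depend on the length used. With the longest transcript in place of merged exons, LAMB1 (99.4 CPM/kb) was above ITGAV (88.7), LAMA5 (23.8) above ITGA6 (23.2) and ITGA1 (16.6) above ITGA2 (11.8 CPM/kb) in controls already. LAMB2 against LAMC1 and ITGA5 against ITGB5 changed places with either length.

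**Figure D3:**
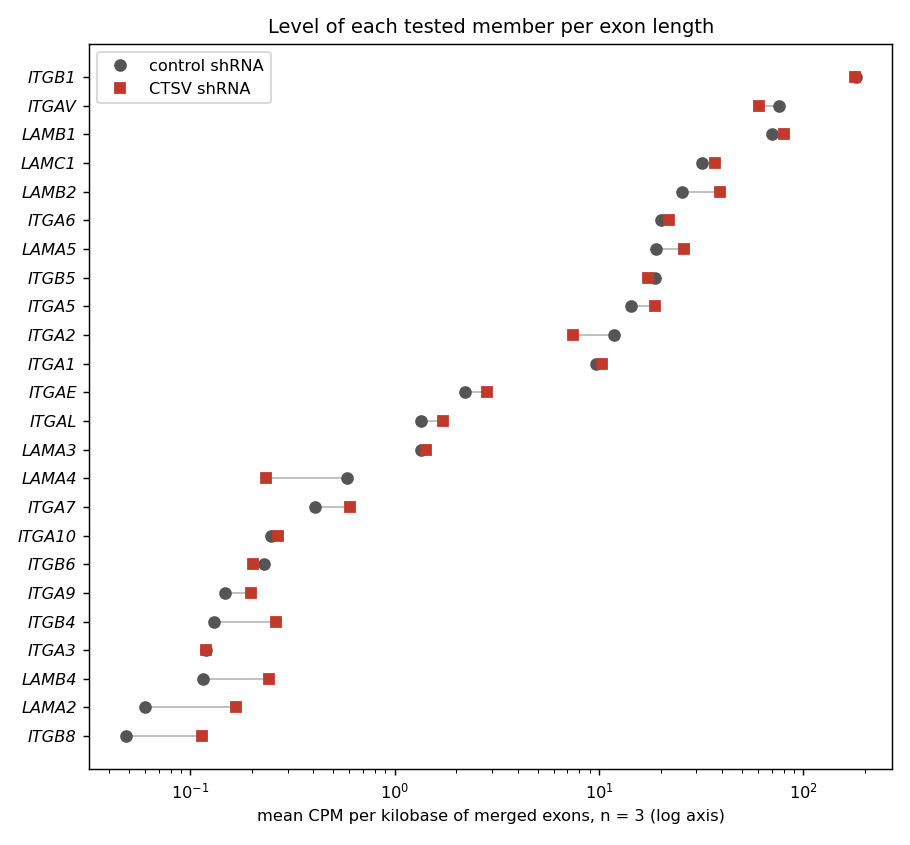
Mean level of the 24 tested members (x axis, CPM per kilobase of merged exons, log axis, n = 3) in control (circles) and knockdown (squares) libraries, ordered by the control level. ITGB1 is highest at 181 CPM/kb in controls, and LAMA2 and ITGB8 at the bottom are under 0.1 CPM/kb in controls.

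Among alpha subunits the composition shifted away from ITGAV and ITGA2. On the per-kilobase scale ITGAV took 56.3%, 56.4% and 54.7% of the summed alpha level in controls and 48.6%, 47.9% and 49.3% in knockdown libraries. ITGA2 went from 8.64% ± 0.429 to 5.94% ± 0.373, and ITGA5 from 10.5% ± 0.380 to 15.0% ± 0.277 (n = 3 each). ITGA6 took 14.6% ± 0.870 and 17.5% ± 0.616, and ITGA1 7.06% ± 0.120 and 8.32% ± 0.274 (n = 3 each), although neither gene was called by itself. In all 5 shares the groups did not overlap, with an exact two-sided permutation p of 0.1, the smallest possible. Shares of 1 total are not independent of each other. ITGAV, the largest part of that total, fell without overlap, so other shares could rise without a rise of their genes. The p-values of these shares therefore add little to the gene values.

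**Figure D4:**
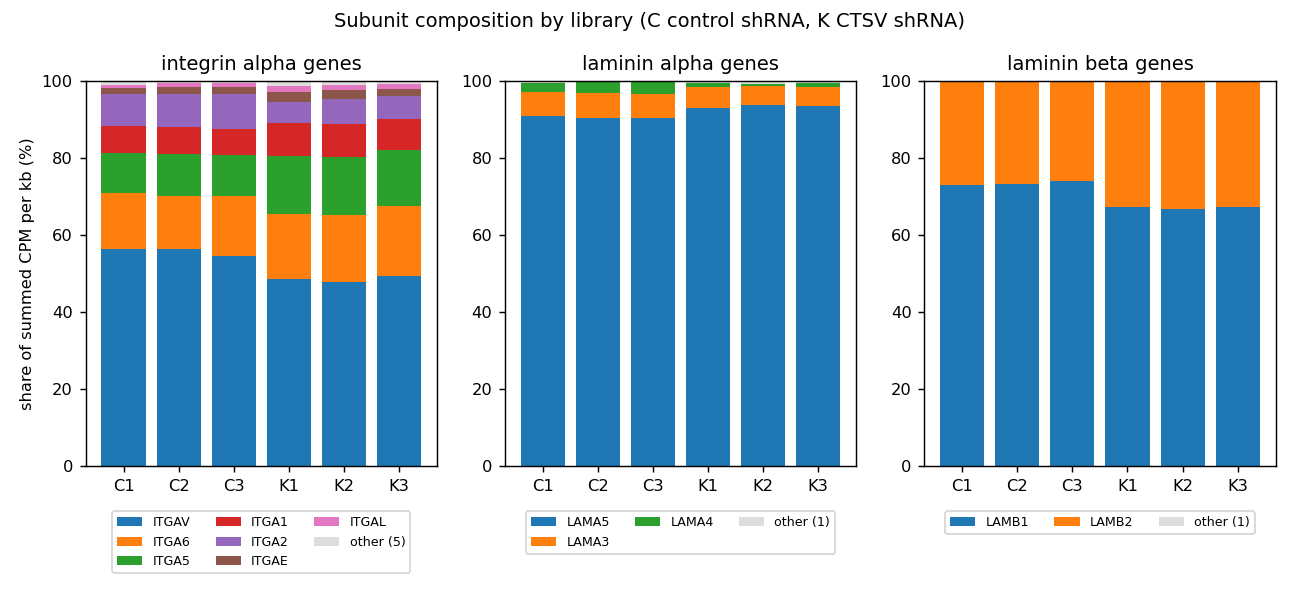
Share (y axis, percent of the summed CPM per kilobase) of each subunit among integrin alpha, laminin alpha and laminin beta genes in the 3 control (C) and 3 knockdown (K) libraries. ITGAV falls from above 54% to below 50%, and LAMB2 takes 25.9% to 26.9% of the beta level in controls and 32.5% to 32.9% in knockdown libraries.

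Genes that act with integrins inside the cell also changed both ways. In a list of 36 adaptors and signalling proteins, 34 were tested, 11 fell, 5 rose and 18 were not called, with a median log2 fold change of -0.09. Over all genes 18.7% were called higher and 21.6% lower, or 19.7% and 33.4% of those with a mean of at least 10 CPM. With length and GC offsets 17 of the list fell and 2 rose. The 4 smallest adjusted p belonged to the actin regulator VASP (-0.95), the LIM adaptor LIMS1 (-0.66), filamin A (FLNA, -0.43) and the actin crosslinker ACTN4 (-0.31). VASP went from 127 ± 9.54 to 65.9 ± 4.39 CPM and LIMS1 from 140 ± 12.6 to 89.1 ± 4.56 CPM (n = 3 each). Named after their values were seen, the talin genes TLN1 and TLN2 were called in opposite directions. TLN1 fell by 0.31 on the log2 scale, from 507 ± 20.4 to 410 ± 11.7 CPM (n = 3 each). TLN2, much less abundant, was called higher with a log2 fold change of 0.31 (adjusted p = 0.00808, edgeR). Means of TLN2 were 25.1 ± 0.599 CPM for controls and 31.2 ± 2.52 CPM for knockdown libraries, with 3 libraries a group and no overlap. The count of rises was 3 without control replicate 1, control replicate 2, knockdown replicate 1 or knockdown replicate 3.

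Basement membrane genes were called in both directions. Of 23 tested partners and other laminin receptors out of 28 listed, 8 rose, 2 fell and 13 were not called, with a median of 0.09. The shares were 18.7% higher and 21.6% lower over all genes, or 19.7% and 33.4% of those with a mean of at least 10 CPM. With length and GC offsets 7 rose and 5 fell. The Fraser complex gene FRAS1 (0.69, from 183 ± 20.7 to 295 ± 16.1 CPM), the fibulin gene EFEMP1 (0.90) and the type IV collagen gene COL4A5 (0.66) rose, and the syndecan gene SDC4 fell (-0.68, from 178 ± 4.62 to 111 ± 4.84 CPM, n = 3 each). Chosen after their values were seen, BCAM, a receptor for LAMA5-containing laminins, rose from 218 ± 8.53 to 300 ± 3.24 CPM, and CD151, the tetraspanin of laminin-binding integrins, fell from 62.9 ± 7.64 to 43.3 ± 4.78 CPM (n = 3 each). Their log2 fold changes were 0.46 and -0.54 (adjusted p = 4.83e-10 and 2.39e-06, edgeR).

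Other ligands of integrins moved both ways. Of 20 tested genes out of 26 listed, 7 rose, 7 fell and 6 were not called, with a median of 0.03. Over all genes 18.7% were called higher and 21.6% lower, or 19.7% and 33.4% of those with a mean of at least 10 CPM. With length and GC offsets 4 rose and 9 fell, and with DESeq2 4 rose. Thrombospondin 1 (THBS1, -1.13, from 156 ± 3.71 to 71.1 ± 4 CPM), ICAM1 (-0.95) and the latent TGF-beta binding protein gene LTBP1 (-0.68) fell, and E-cadherin (CDH1, 0.78, from 54.1 ± 1.40 to 92.7 ± 0.336 CPM, n = 3 each), the ligand of ITGAE with ITGB7, rose. Named after their values were seen, FN1, the ligand of ITGA5, was at 6322 ± 279 and 6741 ± 267 CPM with overlapping libraries (0.09, adjusted p = 0.0292, edgeR) and VTN, the ligand of ITGAV, at 125 ± 4.27 and 141 ± 4.53 CPM (0.18, adjusted p = 0.00571, edgeR, n = 3 each). The count of rises was 2 without knockdown replicate 2 and 4 without control replicate 1, control replicate 2 or knockdown replicate 3. Among 9 tested membrane proteins that associate with integrins, SLC3A2 (-0.94), CD63 (-0.31) and CD81 (-0.48) fell and 6 were not called, where 21.6% of all genes and 33.4% of those with at least 10 CPM were called lower. None rose in edgeR, where 0 were higher at an unadjusted p under 0.05, and none rose in DESeq2. The list's median was -0.06.

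**Figure D5:**
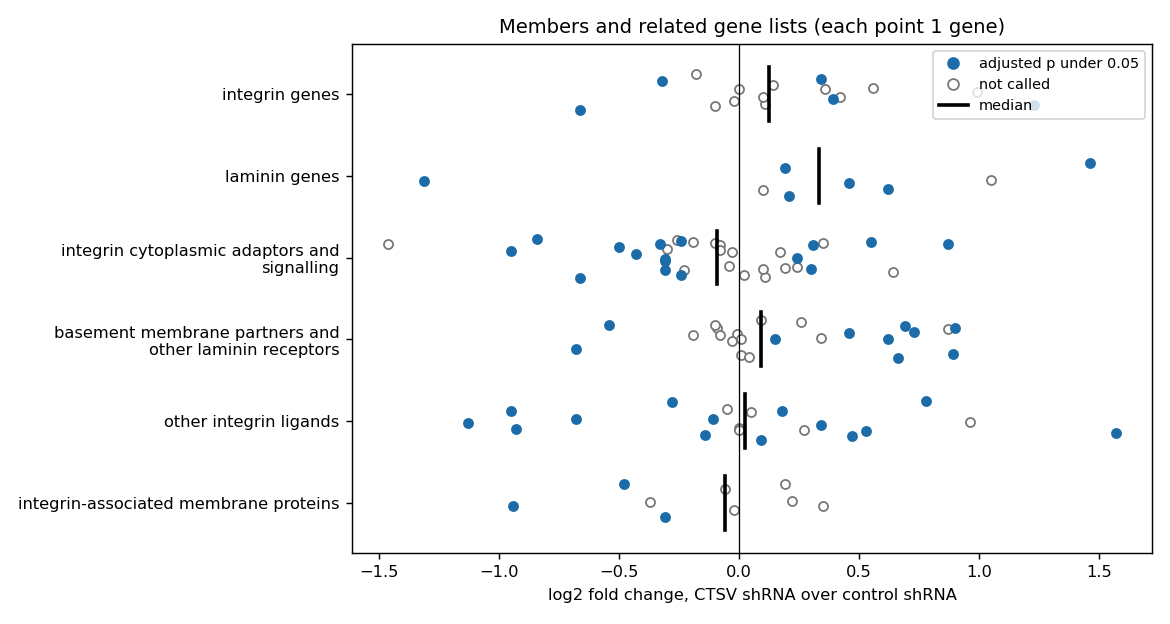
Log2 fold change (x axis, CTSV shRNA over control shRNA) of each tested integrin, laminin and related gene (points, filled where called), with the median of each list as a black bar. The laminin median is 0.33 and the integrin median 0.12, and of the filled points of the adaptor list 11 lie below 0 and 5 above.

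The authors' deposited table has its own adjusted p-values, with fold changes as control over knockdown. At a value under 0.05 the authors' deposited table calls 6 members higher and 3 lower in knockdown. All of these were called in the same direction by edgeR here, and edgeR called ITGAE and ITGB8 in addition.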

How the data were processed

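RNA was extracted with TRIzol and made into poly(A) libraries with an NEBNext Ultra II kit, per the labels' protocols. The submitters' processing notes name HISAT2, StringTie, SAMtools and hg38. For the counter, the annotation and the use of strand, nothing is stated: not given in the sources used here. Per the file headers, the deposited table holds raw read counts per gene and library, with the authors' own log2 fold changes (control over knockdown) and adjusted p-values. Of 28915 entries, 1521 were removed as copies of a name. Counts were normalised with TMM and tested in edgeR 4.0.16 (R 4.3.3) by the quasi-likelihood test, with filterByExpr by group, no covariate and Benjamini-Hochberg adjustment over 15968 genes. The biological coefficient of variation was 6.87%. The 6 library totals limit the precision for members with few counts. The test was checked on simulated counts. Exon lengths came from GENCODE v29. Error values after ± are SDs, and 95% intervals use edgeR's degrees of freedom.

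The members and gene lists were chosen with earlier results of these data known. 1 gene that matches the name rule is not reported here. Every member was named, with full statistics for called ones, and from each related list up to 4 called genes with the smallest adjusted p. Alternatives were RLE factors, other filters, a replicate block, DESeq2 1.42.0, all deposited entries, loess offsets (span 0.5) for length and GC content, no mitochondrial genes, the longest transcript for length, and leaving out each library. Protein sequences were not used here.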

Additional observations from a re-analysis of the deposited data

How the results depend on the processing

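Of the 11 called members, 8 kept their call and direction under all 14 alternatives. ITGAE, ITGB8 and LAMA2 lost it in at least 1. With length and GC offsets 5 members were called lower, as ITGB1 and ITGB5 joined. All genes then split into 2243 higher and 4681 lower, against 2982 and 3451. The filter at a mean of at least 1 CPM gave 11 members higher, as ITGA1, ITGA6 and ITGAL joined, and DESeq2 gave 6. Keeping all deposited entries gave 4 members lower, as ITGB5 joined. Leaving out each library gave 6 to 9 members higher and 3 lower. Adaptors called higher numbered 5, but 3 with no filter, 2 with DESeq2, 2 with offsets and 3 to 5 with a library left out. Adaptors called lower numbered 17 with offsets, and basement membrane partners called lower 5. Other ligands called higher numbered 4 with DESeq2, 4 with offsets and 2 to 6 with a library left out. The cause of these shifts was not tested.

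Directions changed only in members that were not called. With offsets ITGA1 was at -0.09, ITGA3 at -0.07 and LAMA3 at -0.03. ITGA3, at 0.00, was at -0.01 with no filter, -0.01 with DESeq2, -0.03 with all entries and 0.00 without mitochondrial genes. With a library left out, ITGA3 ranged from -0.37 (control replicate 2) to 0.25, ITGA10 from -0.14 (control replicate 2) to 0.28, ITGB6 from -0.62 to 0.30 (control replicate 3) and ITGB1 from -0.04 to 0.00 (knockdown replicate 1).

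Same-numbered libraries did not deviate together (correlations -0.012, -0.003 and 0.021), and differently numbered pairs lay between -0.033 and 0.034. The labels do not say what the numbers stand for. These correlations cannot show whether same-numbered libraries shared a culture or batch. With the replicate block 2996 genes were higher and 3490 lower, and 8 members were higher and 3 lower. ITGB8 was then at an adjusted p of 0.05 and not called, and ITGA6 was called (0.0351, edgeR). Members under about 100 counts a group have wide intervals, and differences in them may not be detectable at this depth.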
